A study of Homo sapiens with 3 samples.

Results

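The autophagy machinery was described here as 37 genes of autophagosome formation and delivery to the lysosome, out of 19775 genes with a probe set named with 1 gene. The genes were listed by function, all 37 were found in the platform annotation, and each was read at its brightest probe set, judged on the mean of the log2 intensities. Rh-30 is an established cell line of alveolar rhabdomyosarcoma (ARMS) that carries the PAX3-FOXO1 fusion gene. The cells were transfected with a control siRNA (siControl in the labels, siCont below), an siRNA against the fusion junction (siPAX3-FOXO1, siPF below) or an siRNA against CD276, the gene of B7-H3 (siB7-H3). Every siRNA was used at 5 nM, and the harvest was 24 h after transfection. Each condition was 1 array, and each target was hit with 1 siRNA. There was therefore no replicate error and no test between conditions. Every difference below lies between 2 arrays, and an effect of losing the target and an effect of the siRNA itself cannot be told apart. Intensities are given for siCont, siPF and siB7-H3, always in this order, and a log2 difference is taken from siCont unless another array is named.

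Autophagy begins when the ULK kinase complex is released from inhibition by the nutrient sensor mTORC1. The Beclin 1 complex then makes the lipid PI3P on a cup-shaped membrane, which grows with lipid supplied by ATG2 and ATG9 proteins. A ubiquitin-like conjugation system attaches the small ATG8 proteins (the LC3 and GABARAP families) to this membrane, receptors such as p62 bring cargo to them, and the closed autophagosome fuses with the lysosome. In skeletal muscle autophagy removes damaged organelles and glycogen, and FOXO transcription factors and TFEB are known to switch on parts of the program.

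The arrays were checked first. The intensity of CD276 was 1486, 1381 and 362. FOXO1 had 678, 249 and 650.0, and PAX3, for which the transcript read was not determined, had 381, 329 and 398. MYOD1, DES and CHRNA1, genes of the muscle lineage, and FGFR4 and MYCN, often expressed in ARMS, were at 2776 or above on all 3 arrays, and MYOG went from 605 to 3386 in siPF and 1269 in siB7-H3. Of the markers of other cell types, PTPRC, CD3E, EPCAM, CDH1, CDH5 and ALB were at most 75.05 on every array, and PECAM1 had 699, 621 and 910.1. The median intensity of all probe sets was 70.6, 71.7 and 70.7. The arrays had been scaled to a common mean before deposit, so these close medians are not an independent check.

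At their chosen probe sets most of the autophagy genes had nearly the same intensity on the 3 arrays, and a few stood out. BECN1, the gene of Beclin 1, was 2.52-fold lower in siB7-H3 and close to siCont in siPF. At their chosen probe sets ATG10 was lower and LAMP2 higher on both knockdown arrays, while other probe sets of these genes differed less, and the probe sets of MAP1LC3A went opposite ways. Counts were limited to genes that reached a level limit on at least 1 array, an intensity 1.91 times the siCont median. Of the 37 genes, 35 reached it, and ULK2 and TFEB stayed under it everywhere. Of the 35 genes, 28 (80.0%) differed from siCont by a log2 value under 0.5 in both comparisons. Over all 10601 genes that reached the limit this share was 78.9%.

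In siPF, 1 of the 35 genes was at least 2-fold lower (ATG10) and 1 at least 2-fold higher (MAP1LC3A, of which another probe set was lower, by a log2 difference of -0.34). Over all 10601 genes 1.16% were 2-fold lower and 1.40% 2-fold higher. In siB7-H3, 2 of the 35 genes were 2-fold lower (BECN1 and ATG10) and 1 was 2-fold higher (LAMP2), against 0.821% and 0.868% of all genes. These are counts of 1 or 2 genes and describe single genes, not the machinery as a whole. The 35 genes had a median log2 difference of 0.10 in siPF and 0.06 in siB7-H3, beside 0.02 in each for all 10601 genes. In siPF 20 of the 35 genes were above siCont and 15 below, and in siB7-H3 22 were above and 13 below, whereas 52.6% and 52.8% of all genes were above. The 2 comparisons share the siCont array.

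**Figure D1:**
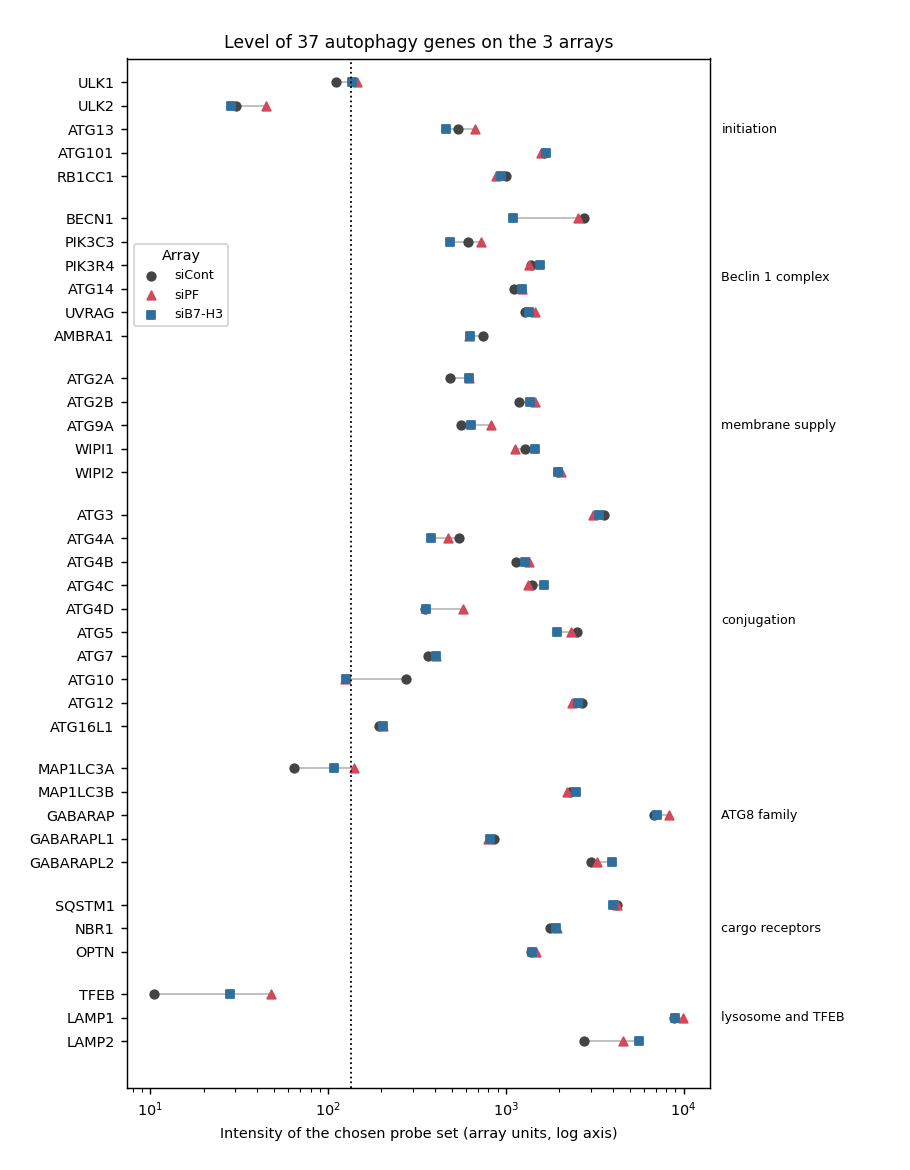
Intensity of the chosen probe set (horizontal log axis, array units) of each of the 37 genes on the siCont (circles), siPF (triangles) and siB7-H3 (squares) arrays, 1 array per condition, with the dotted line at the level limit. For most genes the 3 symbols nearly coincide, whereas BECN1 in siB7-H3 (1096 against 2763 in siCont), ATG10 and LAMP2 are spread out, and ULK2 and TFEB lie left of the line on all arrays.

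Some genes lay near the level limit. The genes just inside were MAP1LC3A, with a highest intensity of 140.3, and ULK1, with 145. The genes left out, TFEB with 47.7 and ULK2 with 45.1, lay far below the limit. MAP1LC3A passed through its siPF value alone, ATG10 through its siCont value alone and ULK1 through its knockdown values, so a difference was built into their being counted. The spread of single genes gives a scale for each value. Among the 4232 genes with a mean intensity between 500 and 2000, the central 95% of log2 differences spanned -0.70 to 0.75 for siPF and -0.61 to 0.66 for siB7-H3. Among the 3209 genes above 2000 the limits were -0.57 and 0.60 in siPF and -0.51 and 0.55 in siB7-H3, and among the 2737 genes from the level limit to 500 they were -0.87 and 0.92, and -0.76 and 0.76. BECN1 in siB7-H3, and LAMP2 and ATG10 in both comparisons, lay outside the limits for their own mean intensity. Genes are not replicates, so these limits describe the arrays and test nothing.

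The promoters of BECN1 and ATG10, the genes past 2-fold lower, are shown because both were searched for the motifs of the factors named above. The sequences are the 250 bases before the start of transcription in the RefSeq table (GRCh38.p14), written 5′ to 3′ on the strand of the gene. Capitals would mark the motifs CACGTG, the E-box at the core of the CLEAR element that TFEB binds, and GTAAACA, an element bound by FOXO factors, searched on both strands (CACGTG reads the same on each, and the motifs can share letters at their ends). Neither promoter held either of them.
BECN1, chr17:42823880-42824129, minus strand: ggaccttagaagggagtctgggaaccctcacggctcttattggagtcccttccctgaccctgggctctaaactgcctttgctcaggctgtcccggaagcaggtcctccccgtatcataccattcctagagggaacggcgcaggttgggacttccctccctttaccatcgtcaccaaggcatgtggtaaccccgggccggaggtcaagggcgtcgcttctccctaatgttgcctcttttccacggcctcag
ATG10, chr5:81971773-81972022, plus strand: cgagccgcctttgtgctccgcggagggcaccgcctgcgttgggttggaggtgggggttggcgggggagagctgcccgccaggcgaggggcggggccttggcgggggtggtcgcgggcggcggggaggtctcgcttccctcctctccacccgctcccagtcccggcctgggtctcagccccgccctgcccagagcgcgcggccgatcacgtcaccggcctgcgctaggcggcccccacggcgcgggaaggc
The ATG10 promoter was 77.6% G and C and the BECN1 promoter 58.8%.

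Of the 37 genes, 32 had a promoter in the table, counted over 250 bases before to 50 bases after the start. RB1CC1, UVRAG, ATG4D, MAP1LC3A and LAMP2 had none there and were not searched. The E-box was found in 3 of the 32, LAMP1, ATG3 and ATG14, beside 8.77% of all 27305 genes with a promoter and 7.26% of all 35116 promoters. GTAAACA was found in none of the 32, beside 4.19% of all genes and 3.42% of all promoters. The E-box stretches that lie before the start are shown with the E-boxes in capitals, since these are the genes among the 32 whose promoters carry the E-box letters.
LAMP1, chr13:113297030-113297233, plus strand: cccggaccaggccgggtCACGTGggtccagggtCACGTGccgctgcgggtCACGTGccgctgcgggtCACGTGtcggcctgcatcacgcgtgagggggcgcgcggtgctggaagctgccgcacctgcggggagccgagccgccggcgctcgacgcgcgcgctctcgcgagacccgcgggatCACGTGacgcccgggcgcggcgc
ATG3, chr3:112561963-112561997, minus strand: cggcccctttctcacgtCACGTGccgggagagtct
ATG14, chr14:55411831-55411868, minus strand: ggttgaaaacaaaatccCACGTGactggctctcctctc
LAMP1 carried 5 E-boxes before its start and 1 at or after it. At the chosen probe sets LAMP1 had a log2 difference of 0.17 in siPF and 0.02 in siB7-H3, ATG3 had -0.22 and -0.10, and ATG14 had 0.15 and 0.15. A match describes the letters in the window and is not a binding site.

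The initiation group holds the kinases ULK1 and ULK2 and their partners ATG13, ATG101 and RB1CC1 (FIP200). None of the 4 counted genes was past 2-fold in either comparison at its chosen probe set. ULK1 had intensities of 111, 145 and 137, and so reached the limit on the knockdown arrays alone. ATG13, a subunit through which mTORC1 restrains the kinase, had 538, 668 and 463, a log2 difference of 0.31 in siPF and -0.22 in siB7-H3. Its probe sets did not go together. Another ATG13 probe set had 627, 216 and 495, a log2 difference of -1.54 in siPF, and the remaining one had 539, 561 and 438. ATG101, which stabilizes ATG13, had 1653, 1584 and 1684, and RB1CC1, the scaffold, had 999.8, 877 and 938. Both stayed within a log2 difference of 0.19 of siCont at these probe sets, and a second RB1CC1 set had -0.24 and -0.39. ULK2 had 30.4, 45.1 and 28.7, too dim for a difference to be read. As a group, the counted genes had a median of 0.13 for siPF and -0.03 for siB7-H3.

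In the Beclin 1 complex, BECN1 was the 1 gene past 2-fold. Beclin 1 is the scaffold that holds the lipid kinase VPS34 in its active complexes and is held back by BCL2. BECN1 had intensities of 2763, 2555 and 1096. The siB7-H3 array was low and the others were close together, with log2 differences of -1.33 in siB7-H3 and -0.11 in siPF. A second BECN1 probe set gave 2273, 2048 and 992, a log2 difference of -1.20 in siB7-H3 and -0.15 in siPF. The third probe set stayed at 29.5 to 30.8 on all arrays, too dim to be read. Both readable sets carry the suffix that the platform gives to probe sets able to bind several transcripts, and without such sets no readable BECN1 value was left. Ranked over the 5768 genes that reached 1000 on an array, BECN1 was the 11th lowest in siB7-H3. In this set 33 genes (0.572%) were 2-fold lower and 32 (0.555%) 2-fold higher.

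The partners of BECN1 did not share its difference. PIK3C3, the gene of VPS34, had 617, 722 and 486, a log2 difference of -0.35 in siB7-H3. PIK3R4, the regulatory subunit VPS15, had 1394, 1349.9 and 1558. ATG14, which directs the complex to the autophagosome, had 1119, 1239 and 1239, and UVRAG, its counterpart in the endosomal complex, had 1291, 1463 and 1353. None of these genes came near the BECN1 difference. AMBRA1, an activator of the complex, had 742, 619 and 632, and another AMBRA1 probe set had 503, 533 and 602, so its probe sets went opposite ways. The median of the 6 genes was 0.05 in siPF and -0.08 in siB7-H3.

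**Figure D2:**
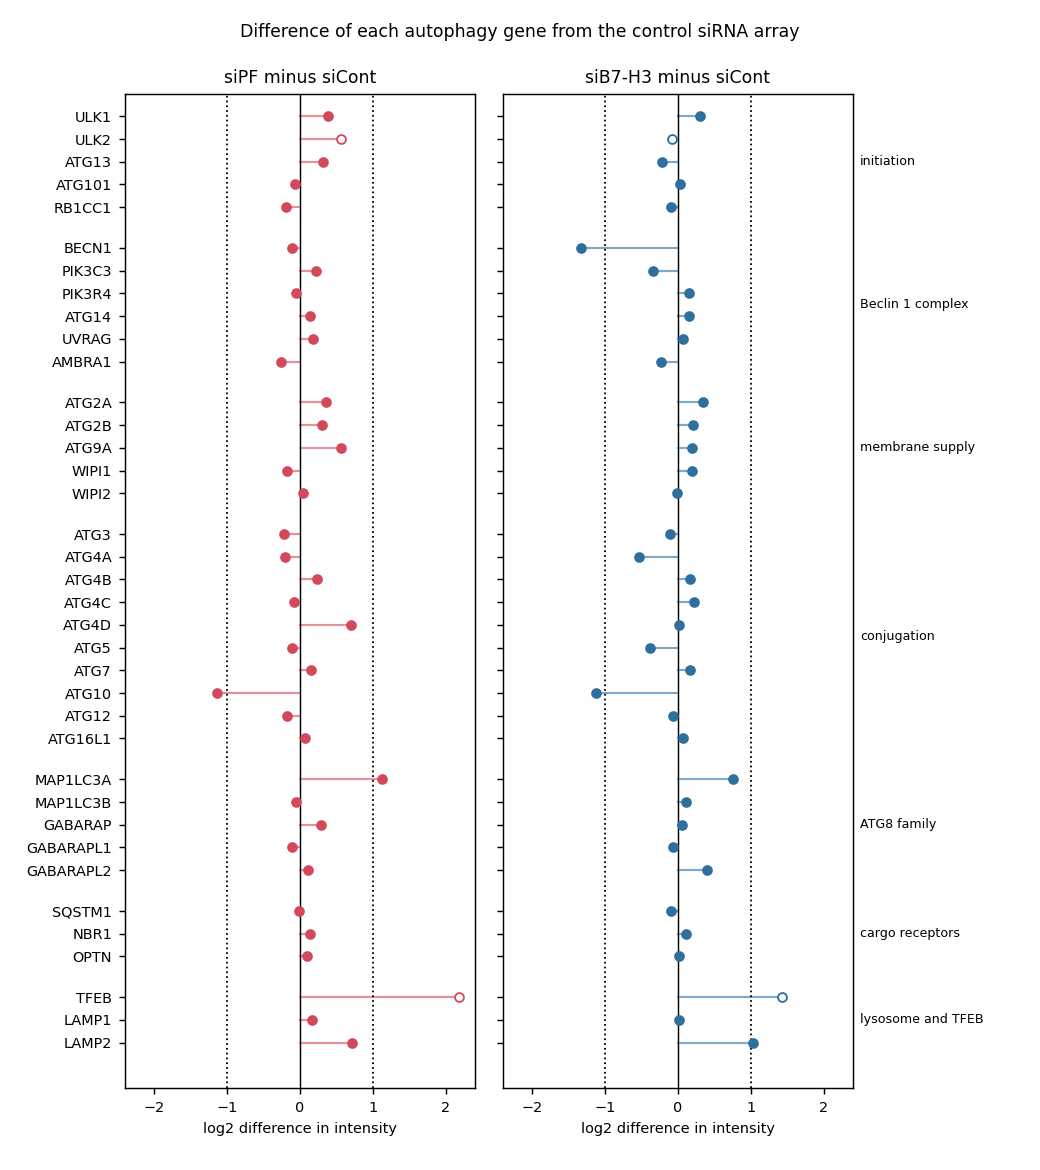
Log2 difference in intensity from siCont of each of the 37 genes in siPF (left panel) and siB7-H3 (right panel), 1 array per condition, with dotted lines at 2-fold and open circles for ULK2 and TFEB, which stayed under the level limit. BECN1 lies at -1.33 in siB7-H3 and at -0.11 in siPF, ATG10 lies left of the line in both panels, and most other genes lie close to 0.

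No gene of membrane supply reached 2-fold at its chosen probe set. ATG9A, a lipid scramblase that travels in vesicles to the growing membrane, had 561, 827 and 639.6, a log2 difference of 0.56 in siPF. The lipid transfer proteins ATG2A and ATG2B had log2 differences of 0.36 and 0.30 in siPF and of 0.35 and 0.21 in siB7-H3. The PI3P readers WIPI1 and WIPI2 had -0.18 and 0.05 in siPF, and 0.20 and -0.01 in siB7-H3. At the chosen probe sets 4 of the 5 genes were above siCont in each comparison, beside 52.6% and 52.8% of all genes. Other probe sets did not all go the same way. A second WIPI1 probe set had 1223, 969 and 1142, log2 differences of -0.34 and -0.10, and second sets of ATG2B and WIPI2 had -0.12 and -0.13 in siPF and -0.18 and 0.0028 in siB7-H3. Dimmer sets that reached the level limit were higher or close to siCont. For WIPI2 this set had 257, 378 and 372, log2 differences of 0.55 and 0.53. The ATG2B ones had 0.52 and -0.03 in siPF, and -0.03 and 0.49 in siB7-H3.

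The conjugation group holds the enzymes that attach ATG12 to ATG5 and ATG8 proteins to lipid. ATG10, the E2-like enzyme that passes ATG12 to ATG5, was the 1 gene of the 10 past 2-fold. It had 276, 125 and 127, log2 differences of -1.14 and -1.12. The siCont array stood alone and both knockdown arrays were under the level limit. The other ATG10 probe sets did not show a difference of this size. A second probe set had 155, 122 and 132.9, a log2 difference of -0.35 in siPF and -0.23 in siB7-H3. The dim ones had 37.6, 28.7 and 42.7, and 51.6, 49.7 and 38.0. With the median level over its probe sets, ATG10 had log2 differences of -0.20 and -0.28, short of 2-fold.

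ATG7, the E1-like enzyme at the head of both conjugation pathways, had 364, 406 and 408. ATG3, the E2-like enzyme of the ATG8 pathway, had 3589.9, 3089 and 3345. ATG12, the modifier itself, had 2674, 2371 and 2560.0, although another of its probe sets had 511, 274 and 414, a log2 difference of -0.90 in siPF. ATG5, which receives ATG12, had 2527, 2344 and 1941 at the chosen probe set, and 319.7, 499 and 511 at another, which went the other way. ATG16L1, which brings the ATG12-ATG5 conjugate to the membrane, had 194, 204 and 204. Other ATG7 probe sets disagreed, as 1 had 189, 268 and 266, log2 differences of 0.50 and 0.49, and another had 135.8, 80.7 and 103.7, log2 differences of -0.75 and -0.39. The ATG4 proteases cut ATG8 proteins before conjugation and release them again. ATG4D had 351, 573 and 354, a log2 difference of 0.71 in siPF and 0.01 in siB7-H3, and ATG4A had 547, 474 and 379, a log2 difference of -0.53 in siB7-H3. ATG4B had 1144, 1348 and 1289, and ATG4C had 1409.7, 1334 and 1639.6. Other ATG4B probe sets had log2 differences of 0.26 and 0.66 in siPF and of -0.20 and 0.54 in siB7-H3. The median of the group was -0.09 in siPF and -0.03 in siB7-H3.

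Except for MAP1LC3A, the ATG8 genes of the main list stayed within a log2 difference of 0.39 of siCont at their chosen probe sets. MAP1LC3C, the gene of LC3C, was placed on the wider pathway list described below. At its 1 probe set it had 311, 510 and 370, log2 differences of 0.71 in siPF and 0.25 in siB7-H3, short of 2-fold. MAP1LC3B2, also on the wider list, stayed under the level limit on all arrays. MAP1LC3B, the gene of the commonly used autophagosome marker LC3B, had 2304, 2219 and 2500.1. GABARAP had 6824, 8320.4 and 7118, and GABARAPL1, a known FOXO target, had 861, 798 and 821. A second GABARAPL1 probe set had 1008, 762 and 697, log2 differences of -0.40 and -0.53. GABARAPL2 had 2999.7, 3251 and 3941, a log2 difference of 0.39 in siB7-H3. MAP1LC3A, the gene of LC3A, had 64.1, 140.3 and 108, a log2 difference of 1.13 in siPF and 0.75 in siB7-H3. Its siCont value was the lowest, and another probe set turned this round, with 145, 115 and 49.1. No direction can be given for MAP1LC3A from these probe sets.

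Among the cargo receptors, SQSTM1, the gene of p62, had 4238, 4217 and 3989. NBR1 had 1769.6, 1953 and 1918, and OPTN, the gene of optineurin, had 1387, 1487 and 1408. At the chosen probe sets the log2 differences of these receptors ran from -0.09 to 0.14. A dim SQSTM1 probe set that reached the level limit had 89.4, 159.7 and 162.7, log2 differences of 0.84 and 0.86.

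LAMP2, a glycoprotein of the lysosomal membrane needed for fusion with autophagosomes, was higher on both knockdown arrays at some of its probe sets. The chosen probe set had 2771, 4560.3 and 5645, log2 differences of 0.72 and 1.03. A dimmer one went the same way, with 256, 417 and 483, log2 differences of 0.70 and 0.91. The remaining LAMP2 probe sets had 2198, 2524 and 2234, and 1003.5, 1133 and 1008, log2 differences of 0.20 and 0.17 in siPF and of 0.02 and 0.01 in siB7-H3. The 4 probe sets thus fell into 2 pairs, 1 higher in each knockdown and 1 near siCont in siB7-H3. With the median level over these sets the LAMP2 differences were 0.19 and 0.015. In the platform annotation the chosen probe set is paired with the RefSeq transcript known as LAMP2B, the form that prevails in muscle, and the set at 1003.5 with the transcript known as LAMP2A, the receptor of chaperone-mediated autophagy. The positions of the probes were not used here, so which transcripts each probe set binds was not tested. LAMP1, its close relative, had 8877, 9976 and 9001, and its other probe sets had log2 differences of 0.02 to 0.19 for siPF and -0.18 to 0.75 for siB7-H3, the last at a dim set. TFEB, the master regulator of lysosomal genes, had 10.5, 47.7 and 28.2, and its other probe set 13.9, 12.1 and 10.1, too dim to be read.

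**Figure D3:**
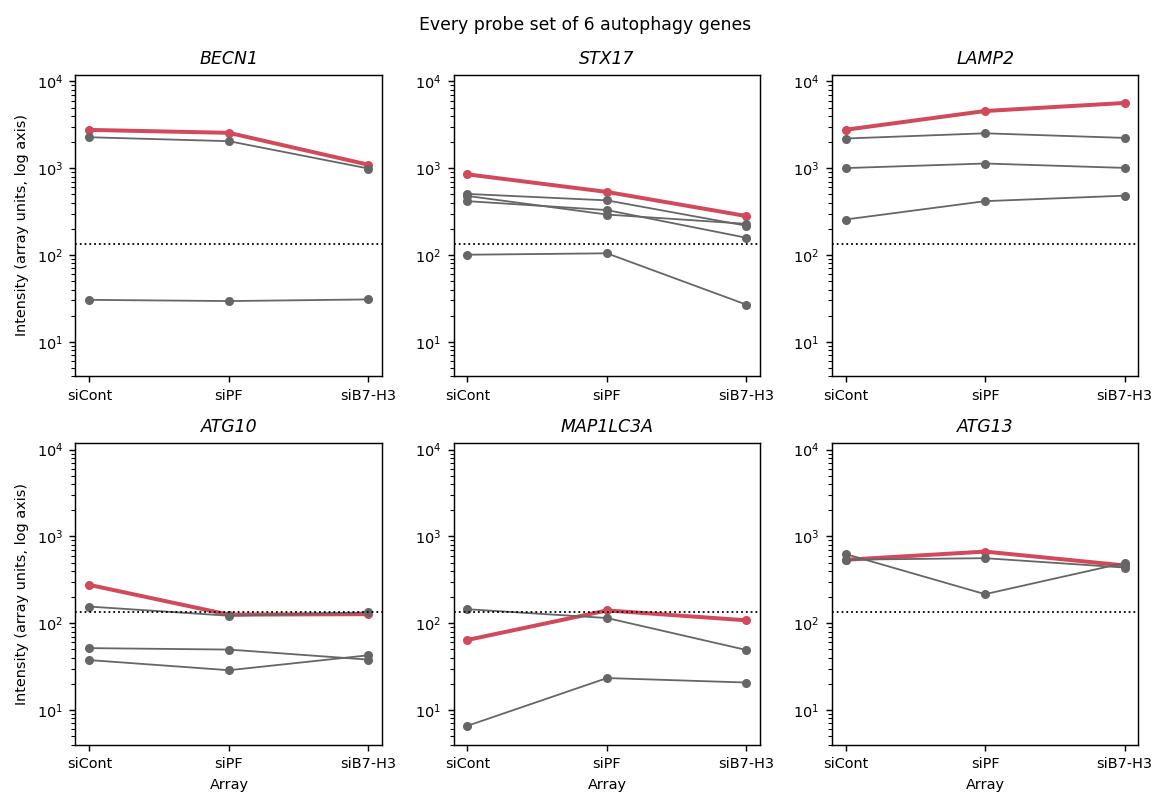
Intensity (vertical log axis, array units) of every probe set of BECN1, STX17, LAMP2, ATG10, MAP1LC3A and ATG13 on the siCont, siPF and siB7-H3 arrays, 1 line per probe set, with the chosen one in red and the dotted line at the level limit. Both readable BECN1 probe sets and all STX17 probe sets drop in siB7-H3, LAMP2 splits into 2 rising and 2 nearly level probe sets, and the probe sets of MAP1LC3A and ATG13 cross.

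Agreement between probe sets of a gene was the available check on single values. Of the 35 genes, 20 had at least 2 probe sets that reached the level limit. All such probe sets of a gene had the same sign for 11 of the 20 genes in siPF and for 9 in siB7-H3. Agreement was not computed over all genes, so whether this is usual on these arrays cannot be told. The range of log2 differences within a gene had a median of 0.48 in siPF and 0.52 in siB7-H3, and it was at least 1 for 3 genes in each. For BECN1 the range was 0.04 in siPF and 0.14 in siB7-H3. For MAP1LC3A it was 1.47 and 2.31.

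Compared with each other and without siCont, the knockdown arrays differed by 2-fold at the chosen probe set of 1 of the 35 genes. BECN1 was higher in siPF than in siB7-H3 by a log2 difference of 1.22. Over all 10601 genes 0.934% were 2-fold higher and 0.981% 2-fold lower in siPF than in siB7-H3. ATG4D (0.69), PIK3C3 (0.57) and ATG13 (0.53) followed in the same direction at their chosen probe sets. The other ATG13 probe sets had -1.20 and 0.36, so no direction can be given for ATG13. ATG10 differed by -0.02.

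A wider list of 91 pathway genes held other core machinery, nutrient sensing, fusion factors, selective receptors, TFEB relatives, lysosomal proteins and FOXO factors with muscle atrophy genes. Of these, 86 were measured, 5 were not analysed here, and 77 reached the level limit on an array. In siPF 1 of the 77 was 2-fold lower (FOXO1, part of the targeted fusion) and none higher, and in siB7-H3 1 was 2-fold lower (STX17) and none higher. The shares over all genes are those given above, 1.16% and 1.40% in siPF and 0.821% and 0.868% in siB7-H3. As a median, the 77 differed from siCont by a log2 value of 0.07 in siPF and 0.04 in siB7-H3.

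STX17, the SNARE protein on the autophagosome that drives its fusion with the lysosome, had 849, 533 and 281, log2 differences of -0.67 and -1.60. All 4 other STX17 probe sets, 1 of them under the level limit, were also past 2-fold lower in siB7-H3, with log2 differences from -1.91 to -1.07. In siPF they ran from -0.71 to 0.05. Over the 10601 genes STX17 was the 15th lowest in siB7-H3. The partners of STX17 in the fusion complex, SNAP29 and VAMP8, had log2 differences of 0.16 and -0.40 in siB7-H3, and RAB7A, the small GTPase of late endosomes, had 0.03. STX17 and BECN1 were thus the autophagy genes that were 2-fold lower in siB7-H3 at every probe set reaching the level limit on an array. The sequence match of the siRNA to these transcripts was not tested.

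FOXO3, which drives autophagy genes in wasting muscle, had 2149, 3749 and 3701, log2 differences of 0.80 and 0.78, short of 2-fold. Both other FOXO3 probe sets that reached the level limit were higher too, by 0.87 and 0.76 in siPF and by 0.89 and 0.66 in siB7-H3. Genes known to respond to FOXO3 were not gathered as a set, and the activity of FOXO3 was not tested. The few readable examples given here went different ways. BNIP3, a mitophagy receptor, had 632, 679 and 894 at its chosen probe set, log2 differences of 0.10 and 0.50. GABARAPL1 was below siCont at both probe sets given above. The muscle ubiquitin ligases FBXO32 and TRIM63 were at most 84.2 on all arrays. TFE3, a relative of TFEB, had 3405, 4055 and 3866.

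**Figure D4:**
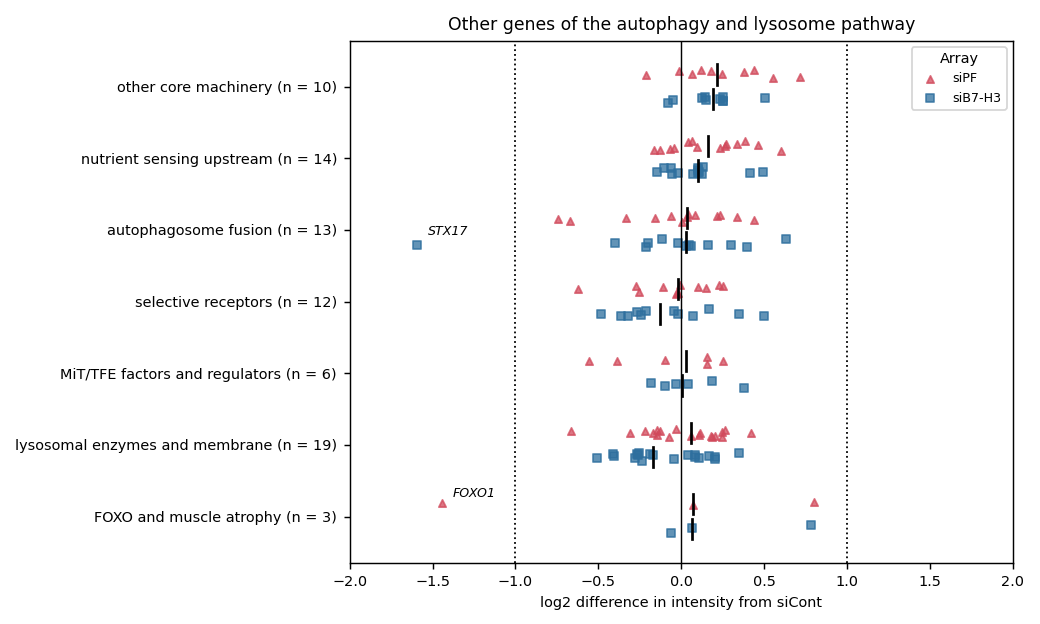
Log2 difference in intensity from siCont (horizontal axis) of the 77 further pathway genes that reached the level limit on an array, by group, for siPF (triangles) and siB7-H3 (squares), with black bars at the median of each group and dotted lines at 2-fold. The group medians lie between -0.17 and 0.21, and STX17 in siB7-H3 and FOXO1 in siPF are the points past 2-fold.

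The 19 lysosomal genes that reached the level limit had a median log2 difference of 0.06 in siPF and -0.17 in siB7-H3. In siB7-H3 11 of the 19 were below siCont and 8 above, whereas 52.8% of all genes were above. The lowest was the protease CTSD, with 637, 548 and 447, and the highest the sialidase NEU1, with 1184, 1581 and 1509. CD63, a membrane protein of late endosomes, had 16738, 19058 and 19283. The E-box was found in the promoters of 9 of the 16 lysosomal genes with a promoter in the table, beside 8.77% of all genes. The lysosomal genes are a chosen list, so this share describes the list and tests nothing. The 8 of these that reached the level limit spanned -0.22 to 0.42 for siPF and -0.51 to 0.35 for siB7-H3. The 14 genes of nutrient sensing, with MTOR and its regulators, spanned -0.16 to 0.60 for siPF and -0.15 to 0.49 for siB7-H3. Among the selective receptors, 8 of 12 were below siCont and 4 above in each comparison, whereas 52.6% and 52.8% of all genes were above, with ranges of -0.62 to 0.25 for siPF and -0.48 to 0.50 for siB7-H3.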

How the data were processed

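Rh-30 RNA was hybridised to 3 Affymetrix U133 Plus 2.0 arrays, 1 per siRNA. The deposited values were linear intensities of each probe set, which the authors made with Affymetrix Expression Console 1.4.1. How probes were summarized is not given in the sources used here. Once 2% of probe sets were trimmed at each end, all arrays had the same mean, so they had been scaled to a common mean before deposit.

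Intensities were taken to log2 without a pseudocount, and the siCont value was subtracted. Probe sets were named from the platform annotation with symbols updated through gene identifiers, and probe sets naming several genes were left out. Each gene took its brightest probe set by mean log2. A 2-fold change in either direction was counted, over genes reaching the level limit on an array, 1.91 times the siCont median. No test was made, since each group had 1 array, and the number of arrays limits the precision. The genes named in full were members past 2-fold, the 5 largest differences per comparison, the 5 brightest members and the initiation, Beclin 1, conjugation and ATG8 groups. The members, the lists and the alternatives were chosen with earlier results of these data known. Promoter sequences came from RefSeq (GRCh38.p14). Python 3.11.15, numpy 2.4.6, pandas 2.3.3 and matplotlib 3.10.9 were used, after a test of the code on simulated data.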

Additional observations from a re-analysis of the deposited data

How the results depend on the processing

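With 1 array per condition no replicate could be left out and no interval between cultures can be given. Centring the arrays or quantile normalization changed no count of genes past 2-fold. With the median over probe sets, the genes past 2-fold lower numbered 0 in siPF and 1 in siB7-H3 (BECN1 with -1.20), and 0 were higher in either. Without probe sets that can bind several transcripts, 22 genes were left, 1 was lower in siB7-H3 and 0 higher in siPF. This left BECN1 with its dim probe set, at 0.016. With a floor at the level limit, or a limit of 270, 0 genes were higher in siPF, and with no limit 2 were higher in each. At another probe set ATG10 had 0.18 in siB7-H3 and MAP1LC3A -0.34 in siPF. The initiation median in siPF was 0.022 with the floor, -0.061 with the limit of 270, -0.00090 with the median over probe sets and 0.31 with no limit, and in siB7-H3 0.16 without shared probe sets. The Beclin 1 median in siB7-H3 was 0.068 with the median over probe sets and without shared ones, and the mean was -0.26. The conjugation mean in siB7-H3 was -0.16. The other 73 of 92 counts and medians stayed close to the values given. The cause of these changes was not tested.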
